A study of Mus musculus with 6 samples.

Results

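The TNF superfamily and its receptors were followed in cultured mouse lung fibroblasts exposed to extracellular cold-inducible RNA-binding protein. The family was taken by name, as protein-coding genes whose symbols begin with Tnfsf or Tnfrsf and a number, together with Tnf, Lta, Ltb, Ltbr, Fas, Fasl, Cd40, Cd27, Cd70, Ngfr and Eda2r. This gave 42 of the 55487 genes listed, 16 of them ligands and 26 receptors. The rmCIRBP group held 3 libraries of primary lung fibroblasts from wild-type C57BL/6 mice, starved of serum at 0.1% for 24 h and then given recombinant mouse CIRBP (rmCIRBP) at 1 µg/mL for 24 h. The PBS group held 3 libraries of the same kind of cells, starved alike and given PBS for 24 h. Nothing in the labels tells whether replicates were separate animals or cultures, nor the age or sex of the mice. The p-values therefore speak only to the spread among these 6 samples, and that spread may be technical.

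Ligands of the family are mostly membrane-bound trimers that can be shed as soluble cytokines, and they cluster receptors that recruit TRAF adaptors or, through a death domain, FADD and caspases. The outcome is NF-kB and MAP kinase signalling, or cell death where the inhibitory proteins fail. Fibroblasts are known as responders to TNF, and several ligands and receptors of the family are themselves NF-kB target genes.

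Libraries held 13677385 to 14001478 counts after rmCIRBP and 12105584 to 14262375 after PBS, and the limit set by 3 counts was 0.210 to 0.248 CPM, the count scaled to a library total of 1e6. Such limits cover counting error only. All 8 fibroblast markers passed the filter on low counts. Their sums were 19750 to 26470 CPM after rmCIRBP and 24180 to 29060 CPM after PBS. Among them Lum was low, at a mean of 1.57 CPM after rmCIRBP and 1.54 CPM after PBS. Dcn rose (log2 fold change 1.21, edgeR adjusted p = 0.0261), Thy1 fell (-1.21, 0.00420) and the others were not called. Smooth muscle markers, contractile genes such as Acta2, were high too, at 1877 to 9792 CPM after rmCIRBP and 2537 to 5127 CPM after PBS. T and NK cell markers were low, at 0.512 to 0.718 CPM in sum after rmCIRBP and 0.661 to 1.40 CPM after PBS, with Cd3e at 0. B cell markers were low as well, at 0.431 to 1.54 CPM after rmCIRBP and 0.491 to 0.986 CPM after PBS, with Cd79b at 0. Neutrophil markers summed to 1.21 to 1.68 CPM after rmCIRBP and 0 to 0.247 CPM after PBS, with S100a9 and Ly6g at 0. Epithelial markers stayed at or below 0.287 CPM after rmCIRBP and 0.491 CPM after PBS, with Krt8 at 0. Endothelial markers summed to 0.862 to 2.05 CPM after rmCIRBP and 11.4 to 17.2 CPM after PBS, with Tie1 and Emcn at 0. Nearly all of the PBS sum was Kdr, at 11.01, 14.37 and 16.97 CPM in PBS libraries 1, 2 and 3. Kdr fell after rmCIRBP (log2 fold change -3.48; edgeR adjusted p = 4.72e-04). Pecam1 and Cdh5 stayed at or below 0.413 CPM in every library of both groups, so the difference in sums rests on Kdr. Macrophage markers were present, at 66.1 to 128 CPM after rmCIRBP and 114 to 152 CPM after PBS. RNA of a whole culture cannot tell a change in the number of cells of a type from a change in RNA per cell.

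Promoter windows from RefSeq (GRCm38.p6), 250 bases before to 50 after an annotated start, were matched for 33 of the 42 members, in 37 windows. Tnfrsf10b, Tnfrsf22, Tnfrsf26, Cd70, Tnfsf4, Tnfsf9, Cd40, Tnfsf12 and Tnfrsf11b had no entry. Each window was searched on both strands for the NF-kB consensus, for TGANTCA, the core of AP-1 sites, and for TTCNNNGAA, the core of STAT sites. Windows of 4 members that rose are given as examples, and no result rests on them. Tnf and Tnfsf18 were the ligands with the highest fold changes. Fas was the receptor with the highest level among those that rose. Tnfrsf9 was picked for its match, as the one member of those that rose with a window that held the NF-kB consensus. Each window reads 5′ to 3′ on the strand of the gene, and capitals mark matches to any of the 3 motifs.
Tnf, chr17:35201958-35202257, minus strand: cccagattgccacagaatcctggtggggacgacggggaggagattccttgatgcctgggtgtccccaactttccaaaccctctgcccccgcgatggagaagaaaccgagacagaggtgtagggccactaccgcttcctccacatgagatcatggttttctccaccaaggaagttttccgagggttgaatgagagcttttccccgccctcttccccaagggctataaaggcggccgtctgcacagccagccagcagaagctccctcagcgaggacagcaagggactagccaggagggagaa
Tnfsf18, chr1:161494407-161494706, plus strand: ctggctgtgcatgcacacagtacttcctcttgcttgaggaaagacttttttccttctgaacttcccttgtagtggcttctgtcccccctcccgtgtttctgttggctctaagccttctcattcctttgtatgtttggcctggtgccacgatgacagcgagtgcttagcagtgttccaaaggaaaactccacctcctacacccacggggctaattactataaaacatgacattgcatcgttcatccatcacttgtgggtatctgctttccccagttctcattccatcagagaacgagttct
Fas, chr19:34290409-34290708, plus strand: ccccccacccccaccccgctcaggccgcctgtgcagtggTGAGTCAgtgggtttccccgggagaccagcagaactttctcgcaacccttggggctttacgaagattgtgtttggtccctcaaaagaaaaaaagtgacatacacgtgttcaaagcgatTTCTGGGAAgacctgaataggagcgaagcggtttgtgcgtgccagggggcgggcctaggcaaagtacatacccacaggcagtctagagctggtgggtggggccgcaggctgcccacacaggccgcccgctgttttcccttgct
Tnfrsf9, chr4:150927749-150928048, plus strand: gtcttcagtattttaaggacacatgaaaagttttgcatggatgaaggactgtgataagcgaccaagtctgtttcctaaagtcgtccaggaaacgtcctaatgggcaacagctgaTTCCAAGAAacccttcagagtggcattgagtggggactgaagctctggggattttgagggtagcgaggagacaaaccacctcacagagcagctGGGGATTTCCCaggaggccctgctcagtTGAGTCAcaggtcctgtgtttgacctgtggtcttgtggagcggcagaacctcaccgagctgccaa

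Tnfrsf9 had a second window, at chr4:150919905-150920204, which held none of the 3 motifs. In the window shown the NF-kB consensus was matched at 2 overlapping positions that share the run GGGGATTTCCC, beginning 43 bases before the start, with a TGANTCA match 15 bases before it. The Fas window held TGANTCA 211 bases and TTCNNNGAA 93 bases before the start. The windows of Tnf and Tnfsf18 held none of the 3 motifs. Among members that rose and had a window, 1 of 10 held the NF-kB consensus, 3 held TGANTCA and 3 held TTCNNNGAA. Among tested members that were not called, the numbers were 1, 1 and 3 of 12, and among members below the filter 2, 2 and 3 of 11. Of all 32851 windows of the genome, 8.5% held the NF-kB consensus, 7.8% held TGANTCA and 8.3% held TTCNNNGAA. A match describes letters in the window and is not a shown binding site.

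Of the 42 members, 29 passed the filter on low counts and were tested, and 11 of these rose while 0 fell (edgeR's quasi-likelihood test, Benjamini-Hochberg adjusted p of at most 0.05 over all 15801 genes tested). Over all genes tested, 6.74% were called higher and 4.77% lower. Those that rose were the ligands Tnf, Tnfsf18, Tnfsf11, Tnfsf8 and Tnfsf13b and the receptors Cd40, Tnfrsf9, Fas, Tnfrsf14, Tnfrsf1b and Tnfrsf23. At an unadjusted p under 0.05, 1 member was lower, and DESeq2 and limma voom each called 0 lower, beside 13 and 10 higher. The median log2 fold change was 0.68 over the tested members, 2.59 over the 9 tested ligands and 0.54 over the 20 tested receptors, against -0.01 over all genes tested.

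How members came to be tested bears on this count and on these medians. In 10 of the 29, at least 1 PBS library lay under 0.725 CPM, the level that corresponds to 10 counts in a library of median depth, and 6 of these 10 rose, against 173 of 995 such genes in the whole table. Members that pass only because they are high in one group had to differ, and 4 of the 9 tested ligands (Tnf, Tnfsf18, Tnfsf8 and Tnfsf11) are among these 10, so no support is drawn from the count or the medians. Among the 19 members that reached that level in all 3 PBS libraries, 5 rose, namely Fas, Tnfsf13b, Tnfrsf14, Tnfrsf1b and Tnfrsf23, against 892 of 14806 genes of that kind in the whole table. Without a filter on low counts 40 members were tested and 17 were called higher, beside 5.47% of the 28056 genes then tested, the additions being Tnfsf14, Tnfsf10, Tnfsf9, Tnfsf15, Tnfrsf12a and Tnfrsf11b. No overlap between the groups was seen for 18 of the 29 tested members, and for 34.8% of all genes tested.

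**Figure D1:**
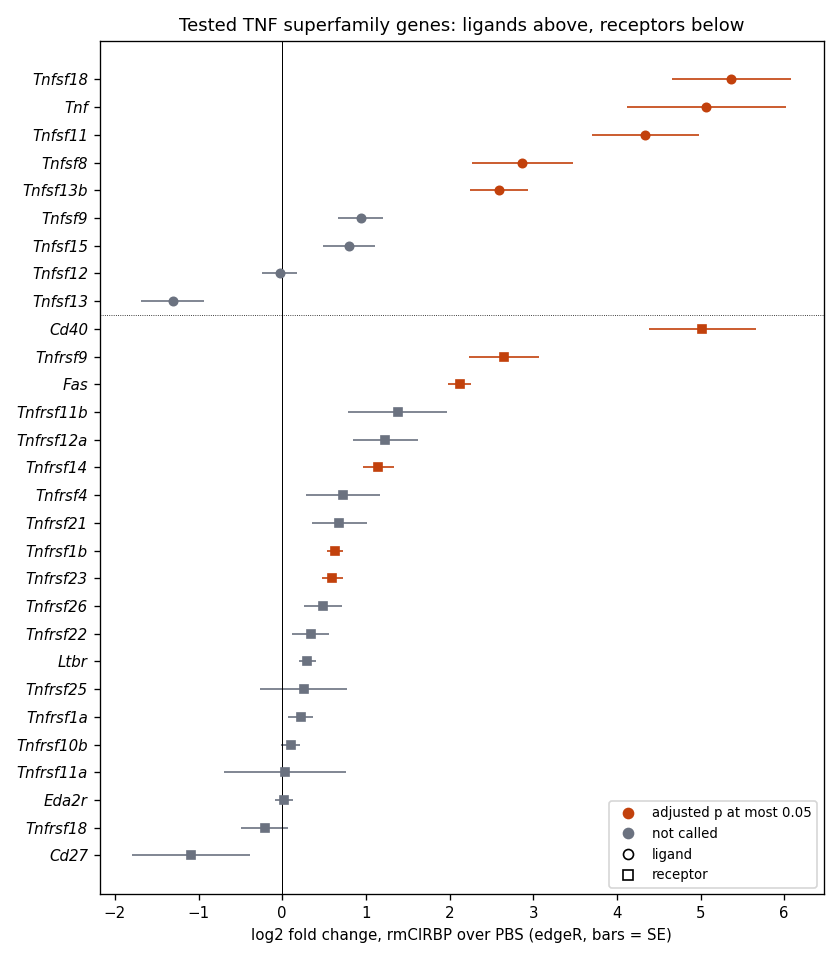
Log2 fold change of rmCIRBP over PBS (x axis, edgeR, bars are SE) for the 29 tested members, ligands (circles) above receptors (squares), with the 11 called genes coloured. Tnfsf18 (5.37), Tnf (5.07) and Cd40 (5.02) lie farthest right, and no called gene lies left of 0.

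Tnf itself, the founding cytokine of the family (chromosome 17, 35199381 to 35202007, GRCm38), was near absence without rmCIRBP. Its level was 6.87, 10.8 and 1.29 CPM in rmCIRBP libraries 1, 2 and 3, against 0.0822, 0.413 and 0.0701 CPM in PBS libraries 1, 2 and 3. The groups did not overlap, but rmCIRBP 3 lay far below rmCIRBP 1 and 2. Tnf rose, with a log2 fold change in edgeR of 5.07 ± 0.95 (here and below ± gives the SE of a fold change; adjusted p = 0.0145). The PBS value rests on 7 counts over 3 libraries, and the ratio of summed counts was 34.8 with an exact 95% interval of 16.7 to 87.4, which covers counting error only. The log2 fold change was 6.26 without PBS 2 and 4.44 without rmCIRBP 2, and the call ended without PBS 3 (4.64; edgeR adjusted p = 0.0709) and in limma voom (adjusted p = 0.0838).

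Macrophages are a main source of TNF, and their markers are given beside Tnf. The 8 macrophage markers summed to 122, 128 and 66.1 CPM in rmCIRBP libraries 1, 2 and 3. In PBS libraries 1, 2 and 3 they summed to 114, 152 and 137 CPM. Most of each sum was Lyz2, at 86.4, 91.1 and 43.4 CPM after rmCIRBP and 91.6, 126 and 114 CPM after PBS. Of the 6 markers that were tested, Adgre1, the macrophage surface protein F4/80, rose (10.4, 11.2 and 5.07 CPM after rmCIRBP, and 1.56, 1.90 and 1.47 CPM after PBS). Mrc1, the mannose receptor, fell, and 4 were not called. The part of macrophages in the rise of Tnf was not tested.

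The receptors of TNF were present at much higher levels per length than the ligand. Tnfrsf1a, the widely expressed death-domain receptor of TNF, had 216, 173 and 233 CPM in rmCIRBP libraries and 180, 201 and 165 CPM in PBS libraries, which overlapped. Its log2 fold change was 0.22 ± 0.15 (edgeR adjusted p = 0.363, 95% interval -0.12 to 0.56). Tnfrsf1b, the second TNF receptor, which lacks a death domain (chromosome 4, 145213463 to 145246870), had 92.3, 94.4 and 82.2 CPM after rmCIRBP and 54.1, 61.3 and 62.5 CPM after PBS. Every rmCIRBP library exceeded every PBS library, and Tnfrsf1b rose 1.55-fold (log2 fold change 0.63 ± 0.10; edgeR adjusted p = 0.00708). In CPM per kb of merged exons, Tnfrsf1a was at 80.1 ± 11.9 after rmCIRBP and 70.3 ± 7.01 after PBS (SD, n = 3 each), the highest level of any member in either group, Tnfrsf1b at 23.5 ± 1.70 after rmCIRBP and 15.5 ± 1.20 after PBS, and Tnf at 3.87 ± 2.93 after rmCIRBP and 0.115 ± 0.119 after PBS.

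The lymphotoxin genes beside Tnf on chromosome 17 stayed low. Ltb, Tnf and Lta lie within 10.9 kb (35194439 to 35205351). Lta, lymphotoxin alpha, had 5 counts over the rmCIRBP libraries and 8 over the PBS libraries, and Ltb, lymphotoxin beta, had 0 after rmCIRBP and 1 after PBS. Their shared receptor gene Ltbr had 109, 108 and 112 CPM after rmCIRBP and 91.9, 96.5 and 84.9 CPM after PBS. The groups of Ltbr did not overlap, but the log2 fold change of 0.30 ± 0.10 was not called (edgeR adjusted p = 0.0934, 95% interval 0.07 to 0.52 without adjustment).

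Tnfsf14, the ligand LIGHT, which binds the lymphotoxin beta receptor and Tnfrsf14, had 6, 5 and 8 counts in the rmCIRBP libraries and 0 in each PBS library. Set against 3 counts over the PBS group, it was 5.87-fold higher, and it was below the filter and so not tested. Tnfrsf14, the herpesvirus entry mediator (chromosome 4, 154921933 to 154928563), had 15.2, 13.1 and 12 CPM after rmCIRBP and 5.34, 7.10 and 6.10 CPM after PBS. The groups stood clearly apart, and Tnfrsf14 rose 2.22-fold (log2 fold change 1.15 ± 0.18; edgeR adjusted p = 0.00710).

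**Figure D2:**
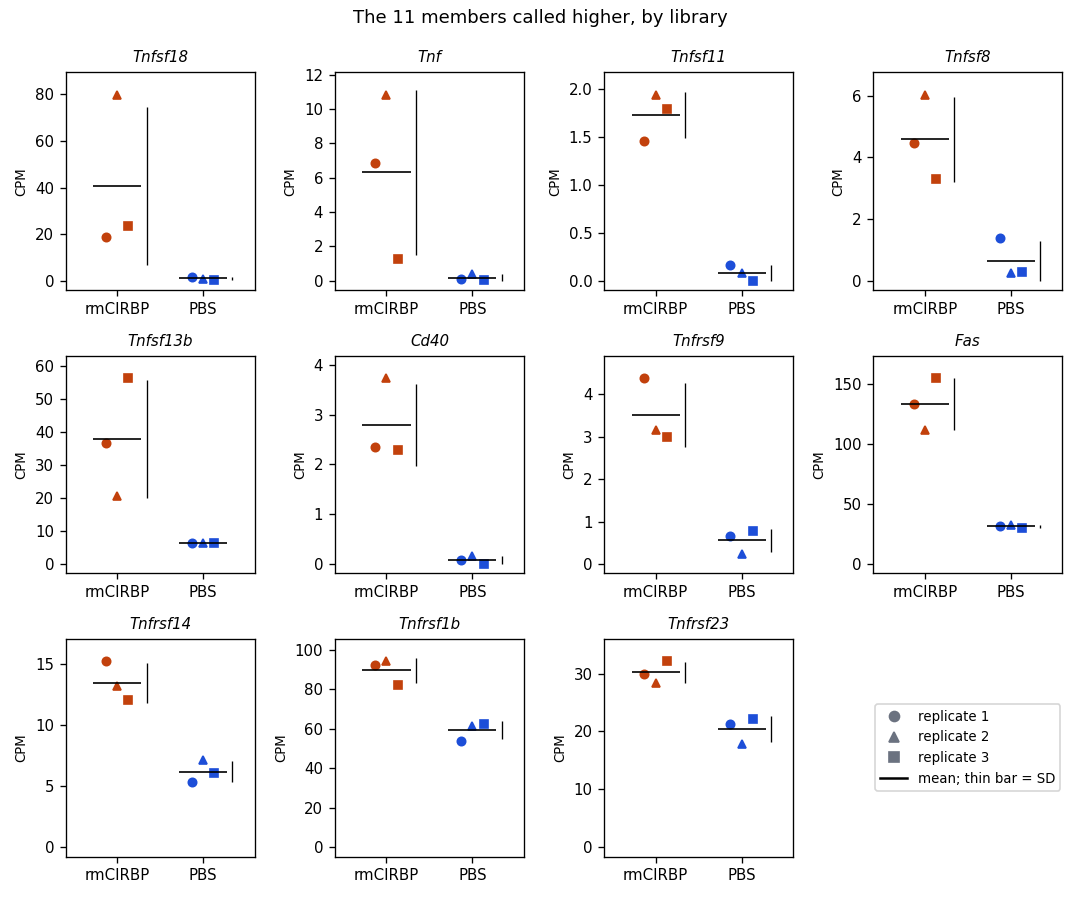
CPM (y axis, linear from 0) of the 11 members that rose, in each rmCIRBP library (left) and each PBS library (right), with the symbol giving the replicate, a line the mean and a thin bar the SD. Fas holds 111 to 155 CPM after rmCIRBP, and Tnfsf18 and Tnf show a wide spread between the rmCIRBP libraries.

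Among the death receptors, Fas, which recruits FADD and caspase 8 when bound by Fas ligand (chromosome 19, 34290666 to 34327772), rose while its ligand was not detectable at this depth. Fas had 133, 111 and 155 CPM in rmCIRBP libraries and 32.0, 32.1 and 29.6 CPM in PBS libraries. The lowest rmCIRBP library was thus well above every PBS library. Fas rose 4.36-fold (log2 fold change 2.12 ± 0.14; edgeR adjusted p = 1.64e-04), with the smallest p of the members, and per length it reached 64.5 ± 10.5 CPM per kb after rmCIRBP, against 15.1 ± 0.688 after PBS (SD, n = 3 each). Fasl had 0 counts over the rmCIRBP libraries and 1 over the PBS libraries.

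In the TRAIL branch the ligand was too low to be tested and the signalling receptor was not called. Tnfsf10, the ligand TRAIL, had 42 counts over the rmCIRBP libraries and 5 over the PBS libraries, a ratio of 7.78 with an exact 95% counting interval of 3.08 to 25.2, and was below the filter. Tnfsf10 was called higher in edgeR without a filter, without PBS 1 and without rmCIRBP 2. With any other single library left out, Tnfsf10 was not called. Tnfrsf10b, the TRAIL death receptor, had 70.1, 79.8 and 78.3 CPM after rmCIRBP and 74.1, 65.3 and 78.9 CPM after PBS (log2 fold change 0.10 ± 0.11; edgeR adjusted p = 0.607, 95% interval -0.16 to 0.35). Its groups overlapped.

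Mice carry a cluster of receptor genes on chromosome 7, Tnfrsf26, Tnfrsf22 and Tnfrsf23, within 78.2 kb (143607659 to 143685872). Tnfrsf22 and Tnfrsf23 are TRAIL decoy receptors in the mouse, binding the ligand without a death domain. Tnfrsf23 had 30.0, 28.4 and 32.1 CPM after rmCIRBP and 21.2, 17.8 and 22.1 CPM after PBS and rose 1.51-fold (log2 fold change 0.60 ± 0.13; edgeR adjusted p = 0.0253). The log2 fold change of Tnfrsf23 stayed between 0.52 and 0.65 with single libraries left out, while its edgeR adjusted p was 0.0850 without PBS 2, 0.0637 without PBS 3, 0.0843 without rmCIRBP 1 and 0.0716 without rmCIRBP 3. Tnfrsf22 (log2 fold change 0.34 ± 0.22; edgeR adjusted p = 0.342) and Tnfrsf26 (0.49 ± 0.23; 0.193) were not called. Of stretches of 50 bases in transcripts of Tnfrsf23, 18.0% also occur in another gene, mainly Tnfrsf22, and of those of Tnfrsf22 27.4%, so the split of reads between these 2 genes is uncertain. All 3 genes overlap the antisense gene E230032D23Rik, which had 174 counts over the rmCIRBP libraries and 115 over the PBS libraries.

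The remaining death-domain receptors were low and not called. Tnfrsf21, death receptor 6, had 2.60 ± 0.811 CPM after rmCIRBP and 1.65 ± 0.219 CPM after PBS (SD, n = 3 each; in edgeR, log2 fold change 0.68 ± 0.33 and adjusted p = 0.214). Tnfrsf25, death receptor 3, had 0.965 ± 0.454 CPM after rmCIRBP and 0.827 ± 0.354 CPM after PBS, without a call (log2 fold change 0.26 ± 0.52; edgeR adjusted p = 0.779). Its ligand Tnfsf15 had 19.7, 17.7 and 16.1 CPM after rmCIRBP and 15.6, 9.25 and 6.38 CPM after PBS. PBS 1 was the highest PBS library of Tnfsf15, and the log2 fold change of 0.80 ± 0.31 was not called (edgeR adjusted p = 0.133), except without PBS 1, where it was 1.25, and without a filter. Ngfr, the p75 neurotrophin receptor, had 2 counts over the rmCIRBP libraries and 4 over the PBS libraries.

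The costimulatory members, best known from contacts between antigen-presenting cells and T cells, held the ligand with the highest fold change. Tnfsf18, the ligand of the glucocorticoid-induced TNF receptor (chromosome 1, 161494655 to 161505290), had 18.9, 79.9 and 23.5 CPM in rmCIRBP libraries and 1.64, 0.826 and 0.561 CPM in PBS libraries. The groups were far apart, and rmCIRBP 2 held 3.76 times the mean of rmCIRBP 1 and 3. Tnfsf18 rose, at 5.37 ± 0.71 in log2 fold change (edgeR adjusted p = 0.00344), which was 4.44 without rmCIRBP 2. Its level per length was 19.7 ± 16.4 CPM per kb after rmCIRBP and 0.489 ± 0.273 after PBS (SD, n = 3 each). Its receptor gene Tnfrsf18 had 8.41, 4.81 and 4.29 CPM after rmCIRBP and 5.83, 7.60 and 7.22 CPM after PBS, with overlap and no call (log2 fold change -0.21 ± 0.28; edgeR adjusted p = 0.673, 95% interval -0.86 to 0.45). Tnfrsf18 lies within the antisense gene Gm16008, which had 234 counts over the rmCIRBP libraries and 260 over the PBS libraries.

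Tnfsf4, the OX40 ligand, lies next to Tnfsf18 within 109.9 kb on chromosome 1. It had 3, 21 and 2 counts in the rmCIRBP libraries and 0, 1 and 2 in the PBS libraries, so that rmCIRBP 2 held most of them. The ratio of its summed counts was 8.03 with an exact 95% counting interval of 2.46 to 41.4, and it was below the filter. The OX40 receptor gene Tnfrsf4 had 1.57 ± 0.316 CPM after rmCIRBP and 0.964 ± 0.499 CPM after PBS (SD, n = 3 each) and was not called (log2 fold change 0.73 ± 0.44; edgeR adjusted p = 0.310).

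Cd40, the receptor that activates B cells, dendritic cells and stromal cells when bound by the CD40 ligand of T cells (chromosome 2, 165055627 to 165072948), was barely detected without rmCIRBP. It had 2.34, 3.73 and 2.29 CPM after rmCIRBP and 0.0822, 0.165 and 0 CPM after PBS. All PBS libraries together held 3 counts of Cd40 and the rmCIRBP libraries 116, a ratio of 35.8 with an exact 95% counting interval of 12 to 176. Cd40 rose, at 5.02 ± 0.64 in log2 fold change (edgeR adjusted p = 0.00285), with 5.92 without PBS 2 and 4.41 without PBS 3. Cd40lg, the gene of its ligand and outside the named family, had 0 counts in every library.

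Tnfsf8, the CD30 ligand (chromosome 4, 63831308 to 63861347), had 4.46, 6.03 and 3.29 CPM after rmCIRBP and 1.40, 0.248 and 0.280 CPM after PBS. PBS 1 was the highest PBS library and still lay below every rmCIRBP library. Tnfsf8 rose, at 2.87 ± 0.60 in log2 fold change (edgeR adjusted p = 0.0222). The log2 fold change was 4.12 without PBS 1, and the call ended without PBS 2 (edgeR adjusted p = 0.0859), PBS 3 (0.0840) or rmCIRBP 1 (0.0681). Its receptor gene Tnfrsf8 had 8 counts over the rmCIRBP libraries and 0 over the PBS libraries. Set against 3 counts over the PBS group, Tnfrsf8 was 2.47-fold higher.

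Tnfrsf9, the receptor CD137 of activated T cells (chromosome 4, 150914562 to 150946102), had 4.39, 3.16 and 3.00 CPM after rmCIRBP and 0.657, 0.248 and 0.771 CPM after PBS. The groups did not overlap, and Tnfrsf9 rose 6.26-fold (log2 fold change 2.65 ± 0.42; edgeR adjusted p = 0.00734). It overlaps Camta1 on the other strand, which had 252 counts over the rmCIRBP libraries and 244 over the PBS libraries. Its ligand gene Tnfsf9 had 4.61, 6.54 and 5.21 CPM after rmCIRBP and 3.53, 2.15 and 3.02 CPM after PBS. Tnfsf9 was higher in every rmCIRBP library than in any PBS library, but its log2 fold change of 0.94 ± 0.27 missed the threshold (edgeR adjusted p = 0.0657) and was called by DESeq2 and without a filter. Gm11110 overlaps Tnfsf9 on the other strand and had 157 counts over the rmCIRBP libraries and 91 over the PBS libraries.

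The remaining costimulatory pair was close to absence. Cd27, a T cell costimulatory receptor, had 0.339 ± 0.347 CPM after rmCIRBP and 0.744 ± 0.221 CPM after PBS (SD, n = 3 each; in edgeR, log2 fold change -1.09 ± 0.70 and adjusted p = 0.342). Without rmCIRBP 1, the highest rmCIRBP library of Cd27, the log2 fold change was -2.27, and it was -0.62 without rmCIRBP 3, with no call in either. The Cd27 gene lies within Vamp1 on the other strand, which had 530 counts over the rmCIRBP libraries and 726 over the PBS libraries. Its ligand gene Cd70 had 1 count over the rmCIRBP libraries and 0 over the PBS libraries.

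The B cell survival factors had fold changes of opposite sign, of which 1 passed the test. Tnfsf13b, the cytokine BAFF (chromosome 8, 10006467 to 10039072), had 36.7, 20.7 and 56.4 CPM in rmCIRBP libraries and 6.41, 6.44 and 6.52 CPM in PBS libraries. The PBS libraries were nearly alike, whereas the rmCIRBP libraries differed 2.72-fold, with rmCIRBP 2 lowest. Tnfsf13b rose 6.02-fold (log2 fold change 2.59 ± 0.35; edgeR adjusted p = 0.00355), and its log2 fold change lay between 2.18 and 2.89 when single libraries were left out. Its level per length was 5.53 ± 2.60 CPM per kb after rmCIRBP and 0.940 ± 0.00840 after PBS (SD, n = 3 each). Gm44789 overlaps Tnfsf13b on the other strand and had 52 counts over the rmCIRBP libraries and 12 over the PBS libraries.

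Tnfsf13, the related factor APRIL, had 0.951, 0.718 and 0.714 CPM after rmCIRBP and 1.31, 2.73 and 2.03 CPM after PBS. It was lower in every rmCIRBP library than in any PBS library, but the log2 fold change of -1.31 ± 0.38 was not called (edgeR adjusted p = 0.0663), except without PBS 1 (-1.51; 0.0473). Tnfsf13 is overlapped on its own strand by Tnfsfm13, a joint transcription unit with Tnfsf12, and 57.3% of its stretches of 50 bases occur there as well. Tnfsfm13 had 8 counts over the rmCIRBP libraries and 44 over the PBS libraries, and Tnfsf13os on the other strand had 144 after rmCIRBP and 227 after PBS, so the counts of Tnfsf13 are uncertain. The B cell receptors of both factors were at or near 0, with 1 count of Tnfrsf13b in each group and 0 counts of Tnfrsf13c and Tnfrsf17 in all 6 libraries.

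Of the bone-related members, Tnfsf11, the osteoclast factor RANKL (chromosome 14, 78277445 to 78308043), was barely detected without rmCIRBP. It had 1.46, 1.94 and 1.79 CPM after rmCIRBP and 0.164, 0.0826 and 0 CPM after PBS. The rmCIRBP libraries lay close together. Tnfsf11 rose, at 4.34 ± 0.64 in log2 fold change (edgeR adjusted p = 0.00559), with 5.25 without PBS 1 and 3.73 without PBS 3. The PBS libraries held 3 counts and the rmCIRBP libraries 72, a ratio of 22.2 with an exact 95% counting interval of 7.31 to 110.

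Tnfrsf11b, osteoprotegerin, a soluble decoy that binds RANKL and TRAIL, had 6.65, 26.0 and 5.43 CPM after rmCIRBP and 6.00, 3.22 and 5.68 CPM after PBS. Only rmCIRBP 2 lay above every PBS library by a wide margin, and the groups overlapped. The log2 fold change of 1.38 ± 0.59 was not called (edgeR adjusted p = 0.173) and was 0.32 without rmCIRBP 2. Tnfrsf11a, the signalling receptor RANK, had 0.658, 2.73 and 0.428 CPM after rmCIRBP and 2.14, 0.991 and 0.701 CPM after PBS (log2 fold change 0.03 ± 0.73; edgeR adjusted p = 0.984). Its sign changed with the scaling and with the library left out, so no direction is given.

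Tnfrsf12a, the receptor Fn14 of the cytokine TWEAK, had 42.2, 97.7 and 52.3 CPM after rmCIRBP and 42.0, 19.8 and 21.5 CPM after PBS. The lowest rmCIRBP library barely exceeded PBS 1. The log2 fold change of 1.23 ± 0.39 missed the threshold in edgeR (adjusted p = 0.0788), while DESeq2 called it (adjusted p = 0.0101), as did edgeR without PBS 1 (1.69; adjusted p = 0.0291), and it was 0.80 without rmCIRBP 2. TWEAK itself, Tnfsf12, had 16.4, 10.6 and 16.7 CPM after rmCIRBP and 12.8, 16.3 and 16.5 CPM after PBS (log2 fold change -0.03 ± 0.21; edgeR adjusted p = 0.947, 95% interval -0.51 to 0.45). Its groups overlapped, and 46.7% of its stretches of 50 bases also occur in Tnfsfm13.

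Eda2r, the ectodysplasin A2 receptor and a p53 target, had 119, 110.2 and 135 CPM after rmCIRBP and 122, 123 and 123 CPM after PBS. It was the member with the smallest absolute log2 fold change (0.02 ± 0.11; edgeR adjusted p = 0.940, 95% interval -0.24 to 0.27), and its sign flipped with library size or upper quartile scaling. Tnfrsf19, an orphan receptor, had 6 counts over the rmCIRBP libraries and 4 over the PBS libraries.

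**Figure D3:**
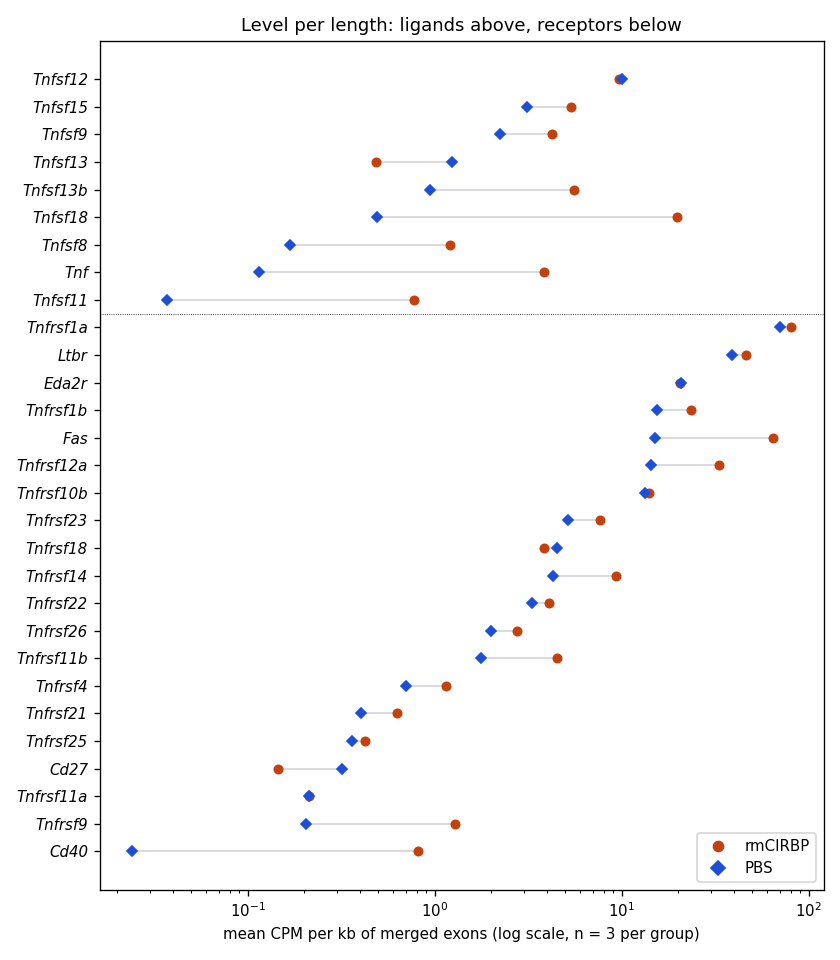
Mean CPM per kb of merged exons (x axis, log scale, n = 3 per group) of the tested members after rmCIRBP (circles) and after PBS (diamonds), ordered by the PBS level with ligands above receptors. Tnfrsf1a stands highest in both groups (80.1 CPM per kb after rmCIRBP and 70.3 after PBS), followed by Fas after rmCIRBP (64.5) and by Ltbr after PBS (38.7), while Tnfsf18 is the highest ligand after rmCIRBP and lies in the middle of the ligands after PBS.

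Set side by side by length, the order of levels changed among both ligands and receptors. After rmCIRBP Tnfsf18 had the highest mean of the ligands but an SD nearly as large, followed by Tnfsf12 at 9.62 ± 2.26 CPM per kb. After PBS the ligands ran from Tnfsf12 at 10.0 ± 1.37 CPM per kb over Tnfsf15 at 3.11 ± 1.41 and Tnfsf9 at 2.25 ± 0.542 down to Tnfsf11 at 0.0368 ± 0.0367 (SD, n = 3 each), and the neighbours Tnfsf15 and Tnfsf9 did not differ beyond their spread. Among receptors after rmCIRBP, Fas stood next below Tnfrsf1a and above Ltbr at 46.5 ± 1.01 CPM per kb. The SDs of Fas and Tnfrsf1a overlapped, but Tnfrsf1a was higher per kb in every rmCIRBP library. After PBS Tnfrsf1a was followed by Ltbr at 38.7 ± 2.48, Eda2r at 20.8 ± 0.129, Tnfrsf1b, Fas and Tnfrsf12a at 14.4 ± 6.39, the last 3 lying within their spread of each other. At the other end, 13 members were below the filter, with 0 to 47 counts over all 6 libraries.

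Of the 18 tested members that were not called, 14 had a log2 fold change above 0 and 4 below it, and the 95% interval of 6 excluded 0 without adjustment. Those 6 were Ltbr, Tnfsf15, Tnfsf9, Tnfrsf12a, Tnfrsf11b and Tnfsf13.

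Ligands and receptors were also set side by side as pairs. Both partners rose for Tnf with Tnfrsf1b. The ligand rose and the receptor was not called for Tnf with Tnfrsf1a, Tnfsf18 with Tnfrsf18, and Tnfsf11 with Tnfrsf11a and Tnfrsf11b. The receptor rose and the ligand was not called for Tnfrsf9 with Tnfsf9. The receptor rose beside an untested ligand for Fas with Fasl, Tnfrsf1b with Lta, Tnfrsf14 with Tnfsf14, Tnfrsf23 with Tnfsf10 and Cd40 with Cd40lg. For Tnfsf13b and Tnfsf8 the receptors were below the filter. Without a filter on low counts Tnfsf14, Tnfsf10, Tnfsf9 and Tnfrsf11b were called higher as well. Both partners were then called for Tnfsf14 with Tnfrsf14, Tnfsf10 with Tnfrsf23 and Tnfrsf11b, Tnfsf9 with Tnfrsf9 and Tnfsf11 with Tnfrsf11b. Whether changes within a pair differ from each other was not tested.

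The rmCIRBP libraries differed among themselves in the family. Of the 29 tested members, 14 were highest in rmCIRBP 2 (48.3%), 8 in rmCIRBP 1 and 7 in rmCIRBP 3, while 39.3% of all genes tested were highest in rmCIRBP 2. The ratio of rmCIRBP 2 to the mean of the other rmCIRBP libraries was 5.02 for Tnfrsf11a, 4.30 for Tnfrsf11b, 3.76 for Tnfsf18, 2.66 for Tnf and 2.07 for Tnfrsf12a, but 0.446 for Tnfsf13b and 0.773 for Fas. Smooth muscle markers, contractile genes such as Acta2 and Myh11, summed to 4517, 9792 and 1877 CPM in rmCIRBP libraries 1, 2 and 3 and to 5127, 2537 and 2695 CPM in PBS libraries 1, 2 and 3. They were highest in rmCIRBP 2 as well, and their part in the spread was not tested. The members just named were picked for their ratios, so their place in rmCIRBP 2 follows from the choice.

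**Figure D4:**
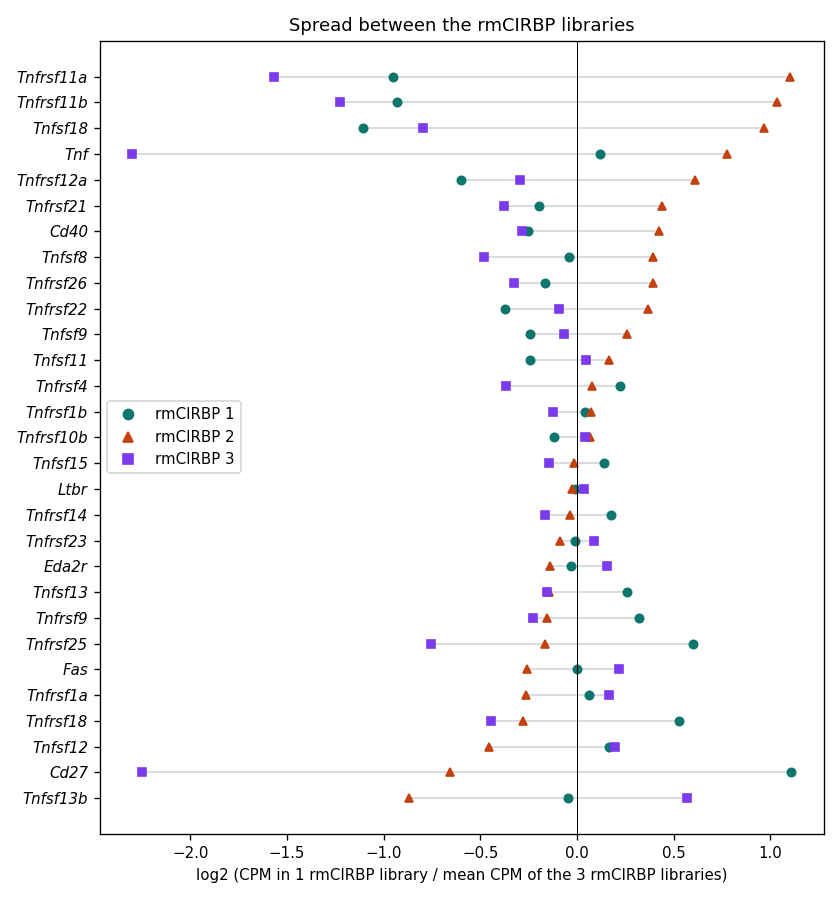
Log2 ratio of each rmCIRBP library to the mean of the 3 rmCIRBP libraries (x axis) for the 29 tested members, ordered by rmCIRBP 2 (triangles). Tnfrsf11a, Tnfrsf11b, Tnfsf18 and Tnf stand farthest right in rmCIRBP 2, and Tnfsf13b farthest left.

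Several lists of genes that act with the family were set beside it. The share to read beside each list count is that over all genes tested, 6.74% called higher and 4.77% lower. The lists were chosen with earlier results of these data known, so no support is drawn from their counts. Of 22 adaptors and proximal kinases of TNF receptors, all tested, 7 rose and 0 fell (edgeR; median log2 fold change 0.26). The ubiquitin ligases Birc3 (2.45 ± 0.14; edgeR adjusted p = 5.31e-05) and Birc2 (1.53 ± 0.14), which ubiquitinate receptor complexes, and the adaptors Traf3 (1.42 ± 0.12) and Traf2 (0.83 ± 0.12) had the smallest p-values. Birc3 held 85.8, 90.0 and 85.3 CPM after rmCIRBP and 14.1, 15.0 and 19.6 CPM after PBS. Tradd and Fadd, the death-domain adaptors, and Ripk1 were not called, at -0.10 ± 0.14, 0.25 ± 0.16 and 0.27 ± 0.11 (edgeR adjusted p = 0.686, 0.342 and 0.149). Without rmCIRBP 1 the list held 4 calls. In the noncanonical NF-kB list, which shares 6 of its genes with this one, 7 of 9 rose and 0 fell (median 1.42). Of those that rose, only Relb (2.23 ± 0.13) and Nfkb2 (1.59 ± 0.11), the transcription factor subunits of that route, were not already counted above. The kinase of that route, Map3k14, had 0.10 ± 0.23 (edgeR adjusted p = 0.815).

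Brakes of the pathway held the highest fold changes of these lists, at Tnip3 and Tnfaip3. Of 11 tested deubiquitinases and brakes, 5 rose and 0 fell (median log2 fold change 0.49, also with Tnip3 at its bound). Tnfaip3, the ubiquitin-editing enzyme A20, had 218, 137 and 234 CPM after rmCIRBP and 7.56, 9.004 and 7.22 CPM after PBS (log2 fold change 4.67 ± 0.24; edgeR adjusted p = 4.78e-05). Its partner Tnip1 rose by 2.61 ± 0.14, and Tank, a TRAF-binding regulator, rose by 1.38 ± 0.22 (edgeR adjusted p = 0.00743). The related Tnip3 had 420 counts over the rmCIRBP libraries and 0 over the PBS libraries. Set against 3 counts over the PBS group, Tnip3 was 130-fold higher. The deubiquitinases Cyld (0.42 ± 0.13) and Otulin (-0.11 ± 0.14) were not called (edgeR adjusted p = 0.0750 and 0.666).

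Of 12 tested genes of death signalling, 4 rose and 0 fell (median log2 fold change 0.39). Bid, which links caspase 8 to mitochondria, rose by 1.80 ± 0.20 (edgeR adjusted p = 0.00153), Mlkl, the executor of necroptosis, by 1.26 ± 0.13 (0.00129) and Daxx, first described as a Fas-binding protein, by 0.47 ± 0.10 (0.0190). The count was 2 without PBS 2, PBS 3 or rmCIRBP 1, in each of which the call of Daxx ended (edgeR adjusted p = 0.0529, 0.0673 and 0.0787). Casp8, the initiator caspase, and Cflar, its inhibitor, were at 0.39 ± 0.12 and 0.38 ± 0.14 and not called (edgeR adjusted p = 0.0695 and 0.125).

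Genes that release or trim ligands and receptors also rose in part. Of 9 tested, 4 rose and 0 fell (median log2 fold change 0.19). Adam17, the protease that sheds TNF and its receptors, had 145, 106 and 143 CPM after rmCIRBP and 73.4, 69.0 and 77.0 CPM after PBS (log2 fold change 0.88 ± 0.14; edgeR adjusted p = 0.00768). Rhbdf2, the inactive rhomboid that brings ADAM17 to the cell surface, rose by 1.80 ± 0.13 (edgeR adjusted p = 2.10e-04), Erap1, reported to promote shedding of TNF receptor 1, by 1.23 ± 0.17, and Sppl2a, an intramembrane protease that cleaves TNF, by 0.71 ± 0.10. Timp3, the inhibitor of ADAM17, was lower in every rmCIRBP library (726, 1093 and 977 CPM) than in any PBS library (1411, 1647 and 1317 CPM), but its log2 fold change of -0.61 ± 0.18 missed the threshold (edgeR adjusted p = 0.0710).

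Of 6 tested genes named as TNF-induced proteins, 3 rose and 0 fell (median log2 fold change 1.55). These were Tnfaip3, Tnfaip2, a membrane-remodelling protein, with 446, 379 and 312 CPM after rmCIRBP and 37.7, 39.2 and 30.0 CPM after PBS (3.44 ± 0.18; edgeR adjusted p = 4.93e-05), and Tnfaip8, a lipid-binding protein (1.08 ± 0.18), whose call ended without rmCIRBP 1 (edgeR adjusted p = 0.0526). Of 9 tested genes of a mixed list of relatives, ligands and binding partners of the family under other names, 0 rose and 0 fell (median -0.16), among them the receptor Relt (1.06 ± 0.33; edgeR adjusted p = 0.0771), the ectodysplasin gene Eda (-0.25 ± 0.29; 0.612) and Sort1, the sorting receptor sortilin, which pairs with Ngfr and is no member of the superfamily (-0.72 ± 0.21; 0.0617). At an unadjusted p under 0.05 edgeR put 1 gene of that list higher and 1 lower, as did DESeq2 after adjustment, and limma voom 0 higher and 0 lower. In the other lists, lower genes numbered at most 1 at an unadjusted p under 0.05, at most 1 by DESeq2 and 0 by limma voom. These genes share the libraries of the comparison with the family and are no separate evidence.

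**Figure D5:**
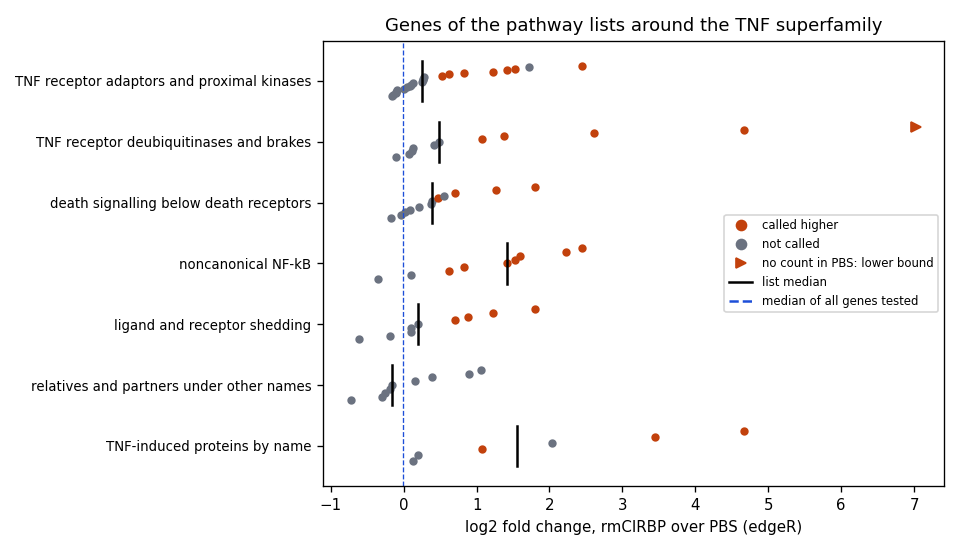
Log2 fold change of rmCIRBP over PBS (x axis, edgeR) for each tested gene of the 7 lists, with called genes coloured, black bars at list medians, a dashed line at the median of all genes tested (-0.01) and Tnip3 drawn at its lower bound. The noncanonical NF-kB list has 7 of 9 genes called and a median of 1.42, beside 6.74% of all genes tested called higher.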

How the data were processed

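For 6 polyA-selected libraries the authors deposited raw counts, in 1 column per library. The submitters' processing notes name GRCm38, featureCounts, DESeq2 and R 4.1.2. Aligner, annotation release and strand setting: not given in the sources used here. Thus overlapping genes on opposite strands cannot be told apart. The members and lists were chosen with earlier results of these data known.

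The test was edgeR 4.0.16 (R 4.3.3) with filterByExpr by group (15801 genes), trimmed mean of M values scaling, and the quasi-likelihood F test, two-sided, with Benjamini-Hochberg adjustment over all genes tested at 0.05. Each SE was derived from the F statistic. CPM used the library total. CPM per kb used merged exons of GENCODE M21, in which all 42 members were found and 41 had the deposited coordinates. Genes without PBS counts were set against 3 counts over the group, a bound that allows for counting error in PBS only. No 2 libraries agreed within sampling noise (smallest chi-square per degree of freedom 14.2).

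Every tested member is named. The members called, Tnf, Tnfrsf1a, Tnfrsf1b, Fas, Cd40, Ltbr, Tnfrsf11b and the highest uncalled levels per kb are given by library, and up to 4 genes of each list with the smallest p are named, with others that were chosen after their values were seen. Values of 3 genes of the lists are not reported here. Counts were also simulated for the 15801 genes of this comparison with the spread that edgeR had fitted, and 200 genes were changed 2-fold or 4-fold. On these counts the edgeR test found 62% of 2-fold and 88% of 4-fold changes, and 5.66% of its calls were false. These shares hold for that setting and need not hold for the data. Alternatives were other scalings and filters, DESeq2 1.42.0, limma 3.58.1 voom, robust edgeR, the replicate number as a block, protein-coding genes only, and leaving out each library.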

Additional observations from a re-analysis of the deposited data

How the results depend on the processing

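All 11 members that rose kept their direction in each of the 16 alternatives. Their groups did not overlap in CPM, so the direction could hardly change, and no support is drawn from this. Of 461 member values recomputed, 429 kept direction and side of the threshold, 9 lost the call, 9 gained one and 14 changed sign. Leaving out single libraries gave 8 to 14 members higher and 0 to 1 lower, and over all genes 513 to 1299 higher and 203 to 845 lower. Without a filter 17 members were higher. Over all genes, 1172 were lower with DESeq2 and 466 with the replicate block.

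The same-numbered libraries did not deviate together as a set (correlations -0.107, -0.169 and 0.246, against -0.329 to 0.360 between libraries of other numbers). The main test used no pairing, and 3 libraries per group cannot exclude one. With the replicate block 11 members remained higher and the death signalling list had 2 higher. That list had 2 to 5 higher and 0 to 1 lower with single libraries left out, and 1 lower without a filter. The adaptor list had 4 to 7 higher with single libraries left out.

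The noncanonical list had 1 lower with library size scaling, upper quartile scaling, DESeq2 or protein-coding genes only, and the shedding list 1 lower with upper quartile scaling, DESeq2 or no filter, and 0 to 1 with libraries left out. Genes under other names had 1 higher with DESeq2 and 0 to 1 with libraries left out. They had 1 lower with upper quartile scaling or DESeq2, 2 without a filter and 0 to 1 with libraries left out.

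Sign changes concerned genes near 0. Leaving out libraries gave log2 fold changes of -0.15 to 0.53 for Tnfrsf25, -0.15 to 0.16 for Tnfsf12, -0.07 to 0.09 for Eda2r and -1.18 to 0.65 for Tnfrsf11a. Eda2r was at -0.02 with library size and -0.05 with upper quartile scaling, and Tnfrsf11a at -0.03 with upper quartile scaling, -0.23 with limma voom and -0.19 with the replicate block. The causes were not tested. Upper quartile scaling gave 925 higher and 1022 lower genes, against 1065 and 753. Depth limits the members with 0 to 8 counts over PBS, whose fold changes rest on few reads.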
